A study of Mus musculus with 2 samples.

Results

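The genes described here are 10 members of a single signalling route: the inhibitors Socs1, Socs2, Socs3 and Cish, the transcription factors Stat3, Stat4, Stat5a and Stat5b, the kinase gene Jak2 and the STAT target Pim1. They were chosen by symbol, and all 10 have a row among the 32285 genes of both count matrices. The study profiled leukocytes of BALB/cAnNCrl mice that carried liver metastases of 4T1, a mouse mammary carcinoma line, seeded through the spleen by hemisplenectomy. CBL0137, a curaxin that acts on chromatin, or vehicle had been given by hepatic arterial infusion some days earlier, and a pair of mice was pooled for each treatment. Cells of the vehicle group carried the antibody hashtag A0301, those of the low-dose group A0305 and those of the high-dose group A0310, and the groups were then run together in 1 droplet library per organ. The labels give neither dose as an amount. All 3 groups share the strain, the tumor and the infusion surgery, so no group stands for an untreated or tumor-free animal. The methods describe beads that capture CD11b+ myeloid cells, whereas the labels describe leukocytes from a density gradient, and cells with T and B cell transcripts were present.

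The liver-labelled library held 9591 barcodes and the spleen-labelled library 4830, each with at least 500 UMIs (unique molecular identifiers, the count of captured transcripts). Hashtags assigned 3103, 3194 and 2138 barcodes of the liver-labelled library to vehicle, low dose and high dose, and 822, 1301 and 865 of the spleen-labelled library. Median UMIs per cell were 4497 to 4794 over the groups of the former and 4694 to 7930 over those of the latter. The tissue labels went against the transcripts: hepatocyte-like and endothelial-like clusters and macrophages with Clec4f, a Kupffer cell gene, sat in the spleen-labelled library, while 5 of 8 hepatocyte markers were at 0 UMIs in the liver-labelled library. The deposited file names carry the opposite tissue to the labels. Each library is therefore called by its label, and no value below is assigned to an organ. The libraries shared 15 barcodes. Each group was 1 pooled sample in each library, so no difference between groups or libraries could be tested, and the intervals given are 95% intervals for counting error only.

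In this route a cytokine such as IL-6, G-CSF, IL-2 or an interferon binds its receptor, the receptor-bound JAK kinase phosphorylates a STAT, and the STAT dimer enters the nucleus and drives its target genes. SOCS proteins and CISH are among those targets, and they bind JAKs or receptors and end the signal, which makes their transcripts a common readout of recent cytokine exposure. Socs3 limits signals of the IL-6 and G-CSF receptors through STAT3, which is well known in neutrophils. Cish and Socs2 follow STAT5, Socs1 limits interferon signals and STAT4 carries IL-12 signals in NK and T cells. Pim1 encodes a serine/threonine kinase that favours survival and is itself induced by STAT3 and STAT5.

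STATs bind palindromic sites of the form TTCNNNGAA, where N is any base. Promoter windows of RefSeq (GRCm38.p6) were available for 9 of the 10 genes, in 13 windows, and 2 of those windows held the motif, those of Cish and Socs3. Both windows with the motif are shown. Capitals mark the motif, and the sequences run 5′ to 3′ on the gene's strand from 250 bases before the listed start to 30 bases after it. The Cish stretch lies at chr9:107296409-107296688 on the plus strand, and the Socs3 stretch at chr11:117969337-117969616 on the minus strand.
Cish: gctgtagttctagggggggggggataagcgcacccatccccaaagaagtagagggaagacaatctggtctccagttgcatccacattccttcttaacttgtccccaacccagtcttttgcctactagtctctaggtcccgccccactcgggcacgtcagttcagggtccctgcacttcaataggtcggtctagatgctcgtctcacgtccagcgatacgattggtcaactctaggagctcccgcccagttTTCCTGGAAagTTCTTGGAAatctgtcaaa
Socs3: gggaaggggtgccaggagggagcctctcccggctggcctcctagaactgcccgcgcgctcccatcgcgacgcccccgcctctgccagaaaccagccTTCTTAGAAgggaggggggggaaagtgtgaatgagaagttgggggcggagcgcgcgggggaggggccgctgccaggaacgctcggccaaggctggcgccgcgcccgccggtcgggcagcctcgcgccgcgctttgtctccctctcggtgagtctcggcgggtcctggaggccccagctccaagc
The Cish window held 2 motifs, one beginning at the listed start and the next 11 bases after it, and the Socs3 window held 1, beginning 154 bases upstream. In GENCODE both genes begin further upstream, so both windows lie inside the annotated genes. The motif was present in 8.30% of all 32851 windows of 300 bases, and 0.457% held at least 2. A match describes letters only, and no binding was measured here.

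In the GRCm38 (mm10) annotation, Socs1 lies at chr16:10782240-10785536, Socs2 at chr10:95385362-95417180, Socs3 at chr11:117966079-117970047 and Cish at chr9:107296026-107302784. Stat4 lies at chr1:51987148-52107189, Jak2 at chr19:29251828-29313080 and Pim1 at chr17:29490753-29496112. The other STAT genes are neighbours, with Stat5b at chr11:100780731-100850724, Stat5a at chr11:100859351-100885169 and Stat3 at chr11:100885098-100939540. Stat5a overlaps the end of Stat3 on the opposite strand, and Stat5a and Stat5b encode closely similar proteins, so how reads were split among these genes is uncertain. The UMIs of assigned cells ranged from 374 (Socs2) to 19942 (Pim1) in the liver-labelled library and from 240 (Stat4) to 11835 (Pim1) in the spleen-labelled library. Levels below are in CPM, a gene's UMI total in a class scaled to all UMIs of its cells, and they are compared between cells for 1 gene at a time.

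The inhibitors divided by lineage in the vehicle cells. In the liver-labelled library, Socs3 was at 276 CPM (266 to 285) in neutrophil-like, 113 (101 to 126) in T cell-like, 84.3 in monocyte-like and 11.9 (7.68 to 17.5) in B cell-like cells, and the first 3 intervals did not overlap. Among spleen-labelled cells Socs3 was as high in monocyte-like (230.3 CPM, 197 to 267) and endothelial-like cells (226 CPM, 139.6 to 345), whose intervals overlapped, and lower in neutrophil-like cells (134 CPM, 122 to 148). The class with the highest Socs3 was thus neutrophil-like in the liver-labelled library, with T cell-like cells next. Macrophage-like cells there held 73.6 CPM (42.9 to 118) on 17 UMIs, and their interval overlapped that of the T cell-like cells. In the spleen-labelled library the highest levels were in monocyte-like and endothelial-like cells. The neutrophil-like interval there overlapped those of endothelial-like and macrophage-like cells (125 CPM, 102 to 153). Socs1, the interferon feedback inhibitor, had its highest level in T cell-like cells, at 77.0 CPM (67.5 to 87.6) and 94.6 CPM (58.5 to 145) in the liver- and spleen-labelled libraries. These intervals overlapped those of the next class in each library, macrophage-like cells (51.9 CPM) and B cell-like cells (64.5 CPM). Neutrophil-like cells held 11.7 and 6.35 CPM of Socs1. Cish was highest in T cell-like and NK cell-like cells, at 27.9 CPM (22.3 to 34.5) and 32.8 CPM (12 to 71.4) in the liver-labelled library, with overlapping intervals, against 2.09 CPM (1.35 to 3.08) in neutrophil-like and 1.42 CPM (3 UMIs) in B cell-like cells. Macrophage-like cells there held 13 CPM on 3 UMIs, and their interval overlapped that of the T cell-like cells. Socs2 was low in neutrophil-like cells (0.668 and 1.67 CPM). In the liver-labelled library it was found in NK cell-like (43.7 CPM, 8 UMIs) and dendritic cell-like cells (29.7 CPM, 14 UMIs). In the spleen-labelled library endothelial-like (53.7 CPM), B cell-like (36.9 CPM), macrophage-like (32.7 CPM) and T cell-like cells (27.0 CPM) had overlapping intervals. Each of these rests on 4 to 25 UMIs. Most neighbours in the order of the Socs2 levels had overlapping intervals.

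**Figure D1:**
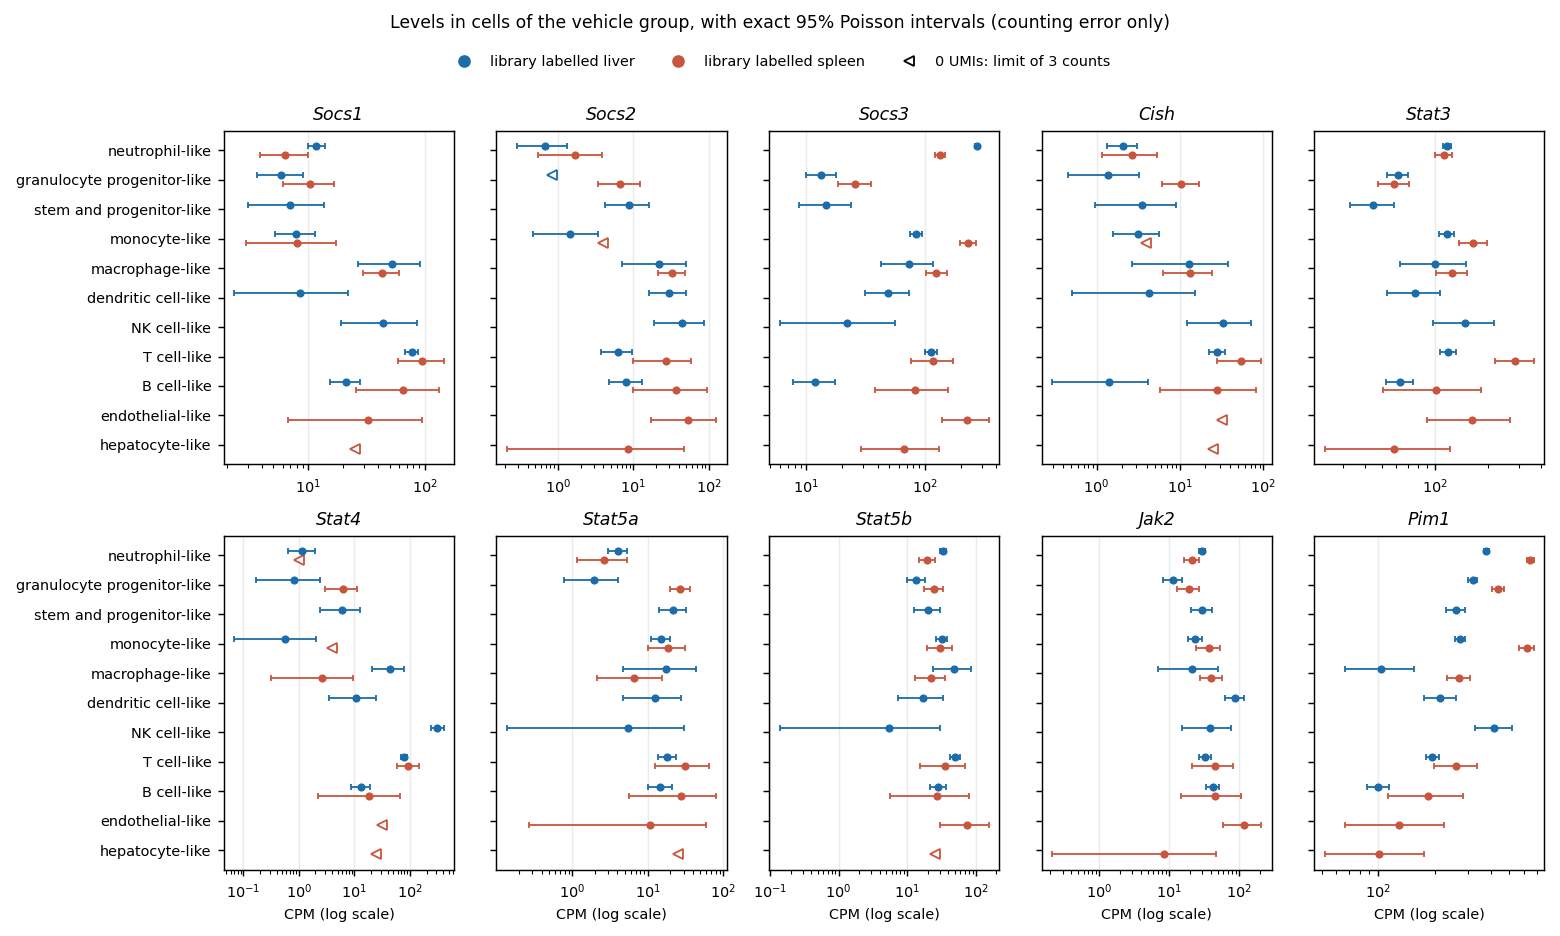
Levels of the 10 genes in vehicle cells by marker-defined class (vertical axis) in CPM on a log scale, with points for the liver-labelled library (blue) and the spleen-labelled library (red), bars for exact 95% Poisson intervals and open triangles for the limit that 3 counts allow where no UMI was seen. Socs3 and Pim1 stand high in neutrophil-like cells, Cish in T and NK cell-like cells, Socs1 in T cell-like cells, and Stat4 in NK cell-like cells at 311 CPM.

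The transcription factors ranged from broad to restricted. Stat3, which relays IL-6 and G-CSF, lay between 44.3 CPM (stem and progenitor-like) and 148 CPM (NK cell-like) over the classes of the liver-labelled library. Within the spleen-labelled library it was highest in T cell-like cells, at 284 CPM (218 to 363), above monocyte-like cells at 164 CPM (137 to 196). Stat4 in the liver-labelled library was at 311 CPM (236 to 404) in NK cell-like cells, above every other class. It was at 77.7 CPM (68.1 to 88.3) in T cell-like and 1.17 CPM (0.639 to 1.96) in neutrophil-like cells. Macrophage-like cells there held 43.3 CPM (20.8 to 79.6) on 10 UMIs, and their interval overlapped that of the T cell-like cells. No Stat4 UMI was found in the 362 vehicle neutrophil-like cells of the spleen-labelled library, where 3 counts would be 1.00 CPM. Stat5b was at 49.8 CPM in T cell-like and 33.1 CPM in neutrophil-like cells of the liver-labelled library, and Stat5a at 18.0 and 4.09 CPM in the same classes. Jak2, the kinase of many myeloid cytokine receptors, was highest in dendritic cell-like cells of the liver-labelled library at 89.2 CPM (64.3 to 121), above B cell-like cells at 42.2 CPM (33.9 to 52.0). Endothelial-like cells of the spleen-labelled library held 118 CPM of Jak2 (59.0 to 211). Pim1 was at 415 CPM (327 to 519.8) in NK cell-like and 377 CPM (366 to 388) in neutrophil-like cells of the liver-labelled library, with overlapping intervals, and at 100.1 CPM in B cell-like cells. For the spleen-labelled library, neutrophil-like (647 CPM) and monocyte-like cells (618 CPM) held the most Pim1 and did not differ beyond counting error.

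Depth per cell differed between groups, so shares of cells with a UMI were compared after each cell had been thinned to 500 UMIs. Socs3 was then seen in 20.2% of the vehicle neutrophil-like cells of the liver-labelled library and in 1 of 42 NK cell-like cells (2.38%). Without thinning, the shares were 78.5% and 9.52%. Stat4 was seen in 7.14% of NK cell-like cells and in 0 of 1430 neutrophil-like cells after thinning (71.4% and 0.979% without it). Droplets also carry free RNA, which thinning does not remove, and its part in these shares was not tested.

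Within the neutrophil-like cells the members followed the clusters. Ordered from the most to the least RNA of immature neutrophil markers, the clusters of the liver-labelled library ran from cluster 12, led by the secondary granule genes Camp, Ltf and Ngp, through clusters 4, 8, 6 and 2 to cluster 5, led by Saa3, Il1b and Ccrl2. Over all groups, Socs3 was at 28.2, 126, 183, 488, 630.0 and 828 CPM in that order. Pim1 was at 263, 297, 300, 443, 523 and 815 CPM. Both levels were highest in the clusters with the least granule gene RNA. The same order gave 77.0 to 247 CPM for Stat3, 13.7 to 93.2 CPM for Stat5b and 13.1 to 77.1 CPM for Jak2, each lowest in cluster 12 and highest in cluster 5. Depth ran the other way, with median UMIs of 23028 in cluster 12 and 2737 in cluster 5. In the spleen-labelled library they were 20022 in cluster 11 and 2794 in cluster 0. These orders are thus of shares of RNA, not of UMIs per cell. Cish was at 3.55, 4.42 and 2.35 CPM in clusters 12, 4 and 8 and at 0.603 CPM in cluster 2, with no UMI in clusters 6 and 5. Clusters 12, 4 and 8 also held most high-dose cells, and in vehicle cells alone Cish was at 3.88, 2.88 and 2.43 CPM in them (11, 11 and 3 UMIs), with no UMI in clusters 6, 2 and 5, where the upper limits of the intervals were 2.11, 2.79 and 3.60 CPM. Across the spleen-labelled library the clusters 11, 9, 3, 13, 16 and 0 held Socs3 at 23.5, 55.7, 116, 233, 437 and 448 CPM and Pim1 at 345, 366, 461, 700.3, 2719.9 and 1827 CPM. Of the 125 cells of cluster 13, 120 were low-dose cells, so cluster and group cannot be told apart in it. Cish lay between 3.48 and 13 CPM there, with overlapping intervals and no order. The member genes had been left out of the variable features, but genes that vary with them had not, so these levels describe the clusters and test nothing.

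**Figure D2:**
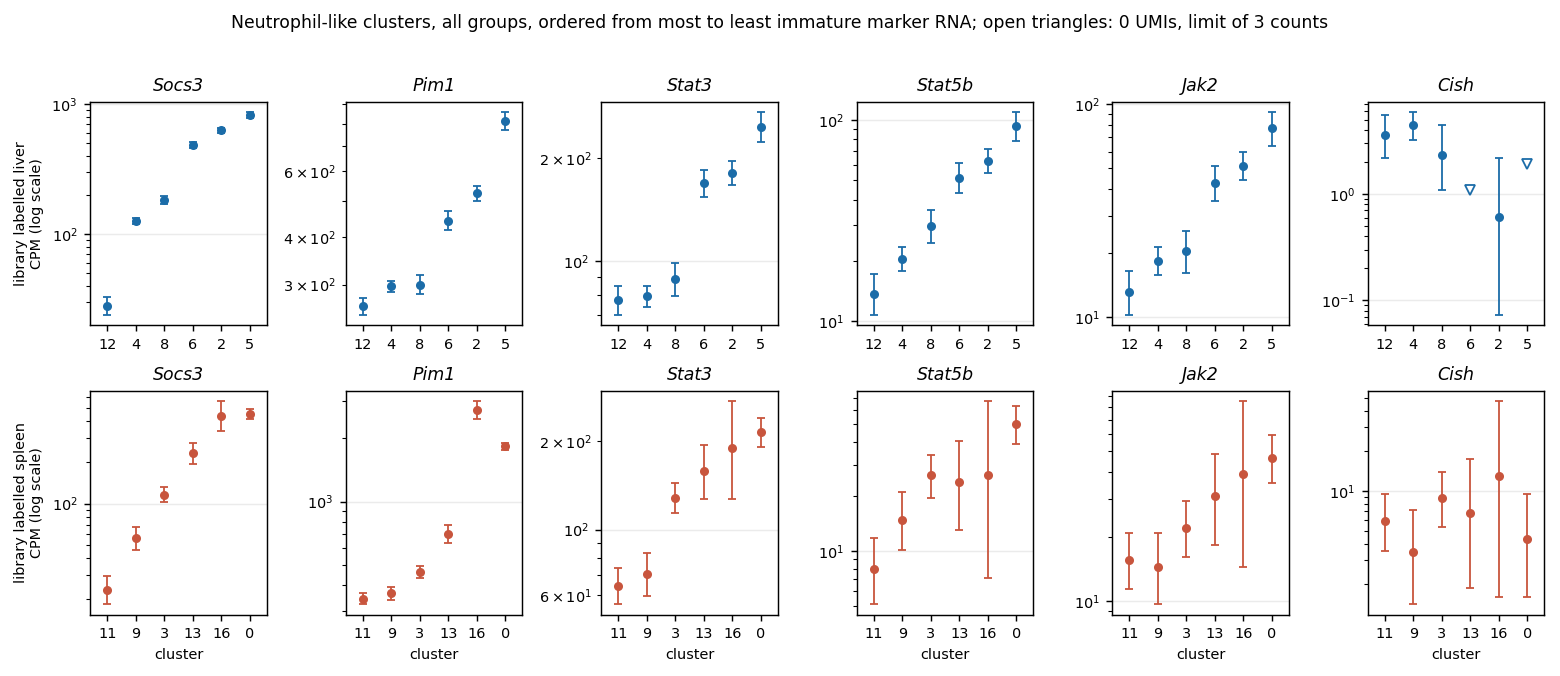
Levels of 6 genes in CPM (log scale) over the neutrophil-like clusters, all groups together, ordered from the most to the least immature marker RNA, for the liver-labelled library (top row) and the spleen-labelled library (bottom row). Bars are exact 95% Poisson intervals and open triangles the limit of 3 counts. Socs3 runs from 28.2 to 828 CPM in the liver-labelled library and from 23.5 to 448 CPM in the spleen-labelled library.

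The study aimed at suppressive myeloid cells, but suppression was not measured in the clusters named here. The central comparison sets the doses against vehicle in the neutrophil-like cells. They were fewer at the high dose, with 1430, 1292 and 198 cells of the vehicle, low-dose and high-dose groups in the liver-labelled library (46.1%, 40.5% and 9.26% of the group) and 362, 623 and 157 cells in the spleen-labelled library (44.0% of the vehicle and 18.2% of the high-dose group). The cells also differed in depth and kind. Median UMIs were 18598 at the high dose against 4369 in the vehicle group of the liver-labelled library, and 14264 against 4932 in the spleen-labelled library. Cluster 4 made up 70.7% of the high-dose and 15.2% of the vehicle neutrophil-like cells of the liver-labelled library, whereas clusters 2, 5 and 6 made up 24.3%, 25.7% and 21.3% of the vehicle and 1.52%, 0% and 6.57% of the high-dose cells. In the spleen-labelled library, cluster 3 was at 45.2% against 18.2% and cluster 0 at 5.73% against 43.9%. Cluster 11 there, led by Cebpe, Fcnb and Hmgn2, held 41 of the 157 high-dose and 60 of the 362 vehicle cells. CPM is a share of all UMIs of the cells, so a lower level does not mean fewer UMIs of the gene per cell. The part of cluster makeup and of depth in a lower level of the whole class was not tested. Values within clusters are therefore given too.

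Cish was higher at the high dose in both libraries. Within the liver-labelled library it had 25 UMIs in each group, which was 2.09, 2.25 and 6.33 CPM in vehicle, low-dose and high-dose neutrophil-like cells, and the log2 ratio of high dose to vehicle was 1.6 (0.74 to 2.46). Within the spleen-labelled library it had 8, 19 and 29 UMIs, or 2.67, 4.83 and 12.3 CPM, with a log2 ratio of 2.20 (1.03 to 3.54). The high-dose interval lay above the vehicle interval in both. Where a pair of UMI counts is given, vehicle comes first. A gene was counted as higher or lower when it differed at least 2-fold and had at least 20 UMIs over both groups. The count did not require an interval that excludes 0, and 1 group alone could supply most of the UMIs. Of the 8 members with that many UMIs in the liver-labelled library 1 was higher (Cish) and 0 were lower, where 1.06% of all genes were higher and 17.8% lower. The median log2 ratio of all genes was -0.38 there and that of the 8 members -0.48, so most member values in this library stood close to the shift of the whole transcriptome. With that shift removed by median-ratio scaling, 3.05% of all genes were higher and 9.58% lower. For the spleen-labelled library 2 of 7 members were higher (Cish and Socs1) and 0 lower, against 3.09% and 3.74% of all genes and a median of 0.024. Markers of T cells, in which Cish is high, summed to 87.8, 113 and 104 CPM in the neutrophil-like cells of the liver-labelled library and to 35.8, 60.7 and 48.7 CPM in those of the spleen-labelled library, against 6395 to 7795 CPM in T cell-like cells, and their part in the Cish values was not tested.

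Within cluster 4, Cish was at 2.88 CPM in vehicle cells (11 UMIs) and 7.22 CPM in high-dose cells (21 UMIs), a log2 ratio of 1.33 (0.21 to 2.52), and in this cluster 2.27% of all genes were higher and 2.40% lower. Within cluster 3 of the spleen-labelled library it had 1 and 12 UMIs, too few for a count as higher. Thinned to 500 UMIs, at most 2 cells of any group held a Cish UMI, so its share of cells could not be compared at equal depth. Without thinning, the shares were 1.75%, 1.86% and 9.60% in the liver-labelled library and 2.21%, 2.25% and 16.6% in the spleen-labelled library, which also carry the greater depth of the high-dose cells.

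Socs3 had the lower level at the high dose. In the liver-labelled library it was at 276, 267 and 141 CPM in vehicle, low-dose and high-dose neutrophil-like cells (3302, 2964 and 558 UMIs), and in the spleen-labelled library at 134, 170.5 and 76.6 CPM (402, 671 and 181 UMIs). The log2 ratios of high dose to vehicle were -0.97 (-1.10 to -0.84) and -0.81 (-1.07 to -0.55), both short of 2-fold. Scaling by the median ratio, which removes the shift of all genes, gave -0.59 in the liver-labelled library, whereas the mean of each cell's CPM gave -1.53 and -1.58 in the liver- and spleen-labelled libraries, past 2-fold in both. Within single clusters the intervals of Socs3 included 0. The log2 ratio of Socs3 was 0.20 (-0.0016 to 0.39) within cluster 4, -0.22 (-0.67 to 0.22) within cluster 8 and 0.35 (-0.48 to 1.10) within cluster 12 of the liver-labelled library. It was 0.37 (-0.091 to 0.83), -0.024 (-0.93 to 0.86) and 0.087 (-0.75 to 0.91) within clusters 3, 9 and 11 of the spleen-labelled library. Clusters 2, 5 and 6, where Socs3 was highest, held too few high-dose cells for a value. Thinned to 500 UMIs, Socs3 was seen in 20.2%, 20.8% and 8.08% of the vehicle, low-dose and high-dose cells of the liver-labelled library and in 14.1%, 11.2% and 5.73% of those of the spleen-labelled library. Without thinning the deeper high-dose cells gave 85.9% against 78.5% of vehicle cells in the liver-labelled library, the opposite order.

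In the summed counts, Socs1 at the high dose differed from vehicle beyond counting error in the spleen-labelled library but not in the liver-labelled library. Within the liver-labelled library it was at 11.7, 6.31 and 10.4 CPM (140, 70 and 41 UMIs), a log2 ratio of -0.17 (-0.71 to 0.34) at the high dose that scaling by the median ratio turned to 0.21 and the mean of each cell's CPM to -1.06. Across the spleen-labelled library it was at 6.35, 13.2 and 16.5 CPM (19, 52 and 39 UMIs), a log2 ratio of 1.38 (0.55 to 2.25), from 18 vehicle and 19 high-dose cells with at most 8 UMIs in one of them. The mean of each cell's CPM gave 0.74 there, short of 2-fold. Socs2 had at most 8 UMIs in any neutrophil-like group and gives no comparison.

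The STATs with enough UMIs and Jak2 stayed under 2-fold from vehicle in the summed counts of both libraries. In the liver-labelled library the log2 ratios at the high dose were -0.50 (-0.68 to -0.33) for Stat3, -0.59 (-0.94 to -0.25) for Stat5b, -0.56 (-1.65 to 0.41) for Stat5a and -0.40 (-0.75 to -0.068) for Jak2, near the median of all genes. The mean of each cell's own CPM put all of them past 2-fold lower there, at -1.04 for Stat3, -1.33 for Stat5b, -1.28 for Stat5a and -1.05 for Jak2. In the spleen-labelled library they were -0.078 (-0.32 to 0.16) for Stat3, 0.16 (-0.41 to 0.72) for Stat5b and 0.063 (-0.50 to 0.62) for Jak2, and averaging each cell's own CPM turned the last pair to -0.30 and -0.38. Stat3 itself was at 117, 115 and 82.7 CPM and at 112, 113 and 106 CPM in the liver- and spleen-labelled libraries. Pim1 was at 377, 379 and 274 CPM (4513, 4198 and 1083 UMIs) and at 647, 804 and 429 CPM (1936, 3166 and 1013 UMIs), log2 ratios of -0.46 (-0.56 to -0.36) and -0.59 (-0.71 to -0.48), or -0.85 and -1.28 with the mean of each cell's CPM. Within cluster 4 of the liver-labelled library and cluster 3 of the spleen-labelled library its log2 ratios were -0.047 and 0.023. Thinned shares of cells with Pim1 were 23.1%, 19.8% and 11.1% and 41.7%, 43.3% and 22.9% in the same order of groups. Within cluster 8 of the liver-labelled library Jak2 was higher (17 and 15 UMIs, log2 ratio 1.51), where 4.16% of genes were higher and 4.57% lower. Stat5b was counted as lower there (42 and 6 UMIs, -1.12), but its interval included no difference. Within cluster 12 Stat5b was counted as higher (35 and 13 UMIs, 1.05), where 3.36% of genes were. So was Jak2 within cluster 3 of the spleen-labelled library (8 and 21 UMIs, 1.09), where 5.47% were, but the interval of Jak2 included no difference.

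**Figure D3:**
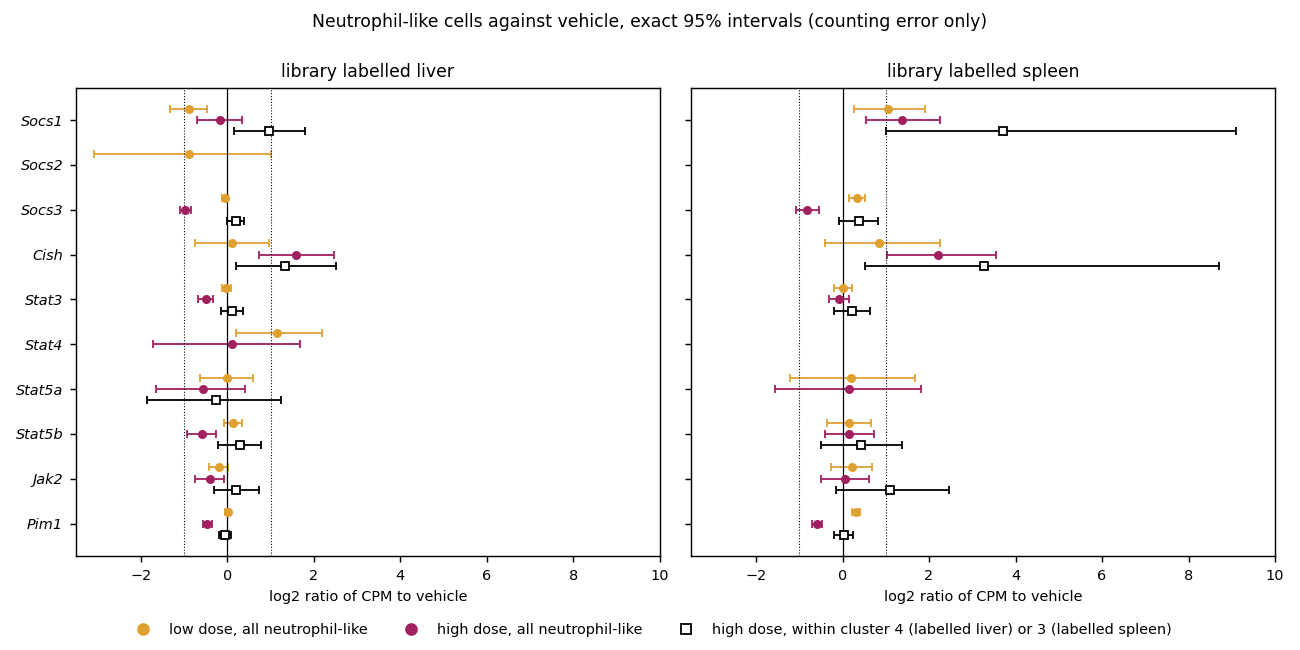
Log2 ratios of CPM to vehicle in neutrophil-like cells for genes with 10 or more UMIs summed over the pair of groups, for the low dose (orange), the high dose (purple) and the high dose within cluster 4 of the liver-labelled library or cluster 3 of the spleen-labelled library (open squares). Bars are exact 95% intervals and dotted lines mark 2-fold. Cish lies to the right at 1.6 and 2.20, and Socs3 to the left at -0.97 and -0.81 in the whole class but at 0.20 and 0.37 within the clusters.

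The low dose, which shares its vehicle cells with the comparison above, left most members near vehicle. Within the liver-labelled library the log2 ratios were -0.045 (-0.12 to 0.027) for Socs3, 0.0069 (-0.054 to 0.068) for Pim1 and 0.11 (-0.75 to 0.97) for Cish. Of 9 members with enough UMIs 1 was higher, Stat4, with 14 and 29 UMIs in vehicle and low-dose cells (log2 ratio 1.16, 0.20 to 2.20), where 0.744% of genes were higher and 2.79% lower. Markers of T cells were at 113 CPM in these low-dose and 87.8 CPM in these vehicle cells, and their part was not tested. Socs1 was lower in the low-dose cells (-0.89, -1.32 to -0.46), by less than 2-fold in the class but by more within clusters 2 (-1.30, 23 and 14 UMIs) and 5 (-1.82, 34 and 5 UMIs), where 5.05% and 4.56% of genes were lower. Within cluster 5, Stat5b was higher (69 and 76 UMIs, log2 ratio 1.09), where 1.71% of genes were. Within the spleen-labelled library the low-dose log2 ratios were 0.34 (0.16 to 0.53) for Socs3, 0.31 (0.23 to 0.40) for Pim1, 0.85 (-0.41 to 2.25) for Cish and 1.06 (0.27 to 1.90) for Socs1. Socs1 was the 1 of 8 members counted as higher, where 2.32% of genes were higher and 3.23% lower. Cluster 13 of that library (leading genes Bcl2l15, Orm1 and Saa1) held 120 low-dose, 2 vehicle and 3 high-dose cells. Cluster and group cannot be told apart there, and its part in these ratios was not tested. The low-dose neutrophil-like cells of that library also held 3792 CPM of erythroid markers against 178 CPM in vehicle and 402 CPM in high-dose cells, and the part of this in the ratios was not tested. Within its cluster 3 Jak2 was counted as higher at the low dose (8 and 18 UMIs, 1.18), where 2.19% of genes were, but the interval included no difference.

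T cell-like cells were among those with the most Cish, and its level at the high dose was above vehicle in both libraries. In the liver-labelled library it was at 27.9, 22.5 and 38.8 CPM (85, 96 and 229 UMIs) over vehicle, low dose and high dose, and the high-dose log2 ratio was 0.48 (0.11 to 0.85). For the spleen-labelled library it was at 54.0, 80.7 and 139 CPM (12, 52 and 192 UMIs), a log2 ratio of 1.37 (0.53 to 2.34). By cluster, cluster 0 of the liver-labelled library, led by Igfbp4, Lef1 and Tcf7, went from 22.5 to 40 CPM (0.83, 0.28 to 1.41), while cluster 7, which holds Foxp3, Ikzf2 and Ctla4, the genes of regulatory T cells, had a log2 ratio of -0.24 (-0.78 to 0.34). Across the spleen-labelled library the Cd8a, Gzma and Pdcd1 cluster 10 went from 57.4 to 203 CPM (21 and 87 cells, log2 ratio 1.83, 0.85 to 2.99), where 10.6% of genes were higher and 3.91% lower. Cluster 6 there went from 46.0 to 97.8 CPM on 3 vehicle UMIs (1.09, -0.51 to 3.40), where 17.5% were higher and 9.43% lower.

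Socs2, the other STAT5-linked inhibitor, was the 1 of 10 members at least 2-fold higher in T cell-like cells of the liver-labelled library, with 19 and 91 UMIs (6.23 and 15.4 CPM, log2 ratio 1.31, 0.58 to 2.10), where 2.88% of genes were higher and 0.961% lower. Cluster 7 held 131 of the Socs2 UMIs of the class and made up 14.5% of the vehicle and 21.7% of the high-dose cells, and within it the log2 ratio was 0.44 (-0.33 to 1.29). Socs1 was at 77.0, 102 and 102 CPM, a log2 ratio of 0.41 (0.19 to 0.63) at the high dose and 0.40 (0.17 to 0.64) at the low dose. In the spleen-labelled library Socs1 was at 94.6, 68.3 and 82.7 CPM with overlapping intervals.

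Socs3 in T cell-like cells differed by dose and library. Within the liver-labelled library it was at 113, 184 and 116 CPM (345, 782 and 682 UMIs), with a log2 ratio of 0.70 (0.51 to 0.89) at the low dose and 0.031 (-0.16 to 0.22) at the high dose. By cluster, the low-dose log2 ratios were 0.67 in cluster 0, 1.0 in the Cd8a and Cd8b1 cluster 3 (where 1.91% of genes were higher) and 0.46 (-0.048 to 0.98) in cluster 7. None of the 10 members was at least 2-fold higher at the low dose in the class, where 1.63% of genes were higher and 0.864% lower. Within the spleen-labelled library Socs3 was at 117, 63.6 and 41.3 CPM (26, 41 and 57 UMIs), with a log2 ratio of -1.5 (-2.20 to -0.77) at the high dose, where 1 of 10 members was higher (Cish) and 1 lower (Socs3), against 12.1% and 4.57% of all genes. It was lower in both clusters: -1.56 (-2.52 to -0.46) in cluster 6, and in cluster 10 from 95.6 to 16.6 CPM on 15 and 9 UMIs (-2.52, -3.90 to -1.24). The 26 vehicle UMIs came from 9 cells. Neutrophil markers name the class with the most Socs3 in the liver-labelled library. They summed to 1072, 5458 and 541 CPM in the T cell-like cells of the spleen-labelled library. In those of the liver-labelled library they summed to 1631, 1349 and 1245 CPM, and their part was not tested.

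**Figure D4:**
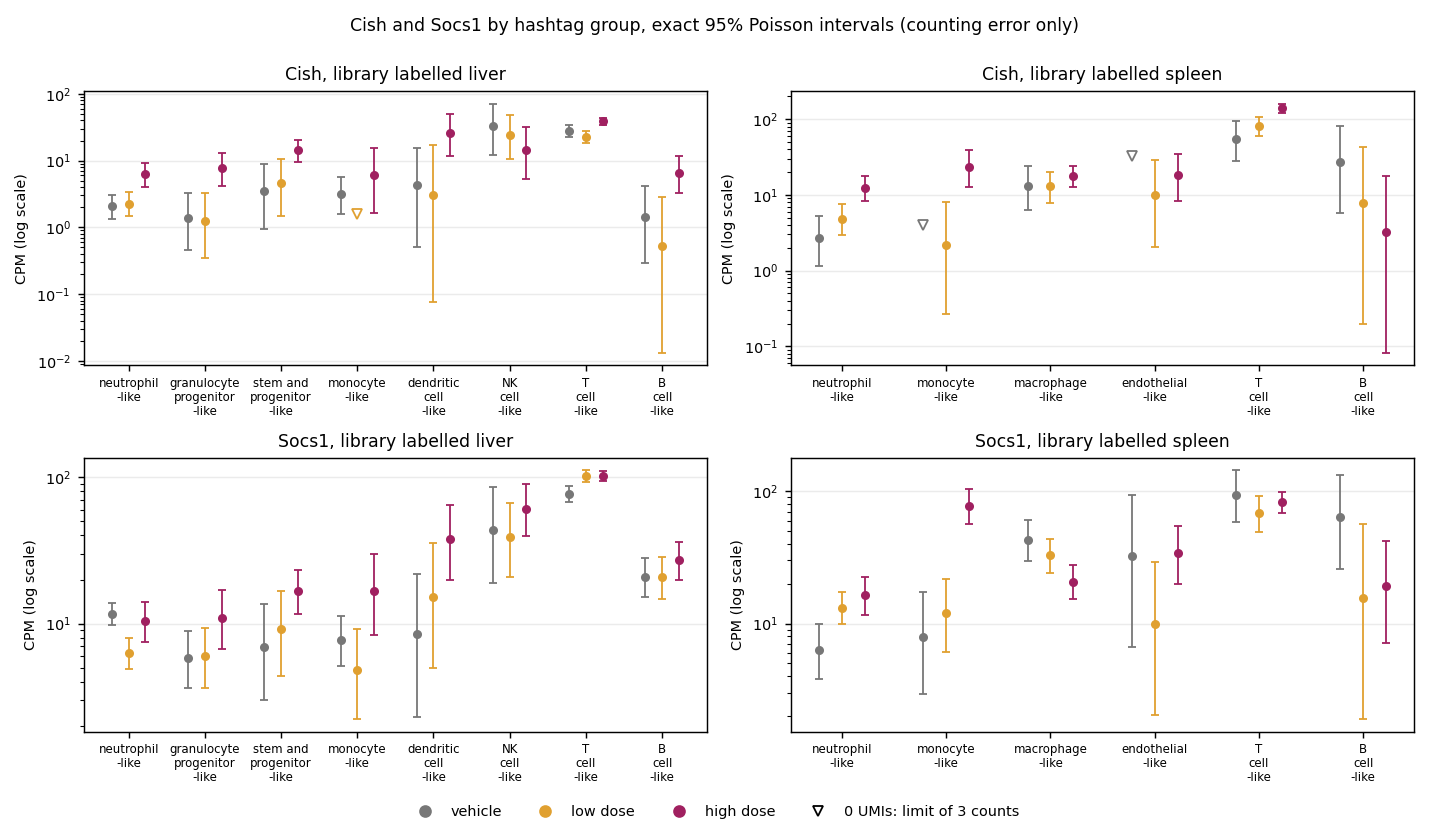
Cish (top) and Socs1 (bottom) in CPM on a log scale by class and hashtag group, for the liver-labelled library (left) and the spleen-labelled library (right), with exact 95% Poisson intervals and open triangles for the limit of 3 counts at 0 UMIs. Cish in neutrophil-like cells is at 6.33 and 12.3 CPM at the high dose against 2.09 and 2.67 CPM in vehicle cells, and NK cell-like cells have their lowest Cish point, 14.6 CPM, at the high dose with overlapping intervals.

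Among the STATs of the T cell-like cells, Stat3 had a log2 ratio of -0.25 (-0.44 to -0.056) at the high dose in the liver-labelled library, from 118 to 99.0 CPM, and of -0.93 (-1.34 to -0.49) in the spleen-labelled library, from 284 through 220.3 to 149 CPM. Stat4 was at 77.7, 85.0 and 76.6 CPM and at 94.6, 93.1 and 62.4 CPM in the liver- and spleen-labelled libraries. Stat5b was at 49.8, 69.5 and 54.8 CPM in the former, a log2 ratio of 0.48 (0.19 to 0.77) at the low dose. Within cluster 6 of the spleen-labelled library, with 23 vehicle and 90 high-dose cells, Socs1 (-1.06), Socs3 (-1.56), Stat3 (-1.58), Stat4 (-1.13) and Stat5a (-1.04) were lower, 5 of 10 members, beside the 9.43% of genes given above. Their vehicle levels rest on 4 to 23 UMIs each. At the low dose in the whole class of that library 1 member was higher, Socs2, with 6 and 36 UMIs (1.05, -0.21 to 2.59), where 7.68% of genes were higher and 3.13% lower. It stayed past 2-fold in 5 of 10 alternatives and was at 0.14 with the mean of each cell's CPM. By cluster, Pim1 (13 and 114 UMIs, 1.07) was higher in cluster 6, where 14.2% of genes were. Cish reached the minimum of UMIs there through the low-dose cells (3 and 27 UMIs, 1.11), and its interval included no difference. In cluster 10 Socs3 (15 and 7 UMIs, -2.35) and Pim1 (45 and 41 UMIs, -1.38) were lower, where 4.16% were.

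NK cell-like cells were few, with 42, 80 and 88 in the 3 groups of the liver-labelled library. Stat4, which relays IL-12, was at 311, 199 and 202 CPM (57, 66 and 83 UMIs), log2 ratios of -0.65 (-1.18 to -0.11) at the low and -0.63 (-1.13 to -0.11) at the high dose. Socs3 had 4, 6 and 5 UMIs, or 21.9, 18.1 and 12.2 CPM with intervals of 5.96 to 56.0 in vehicle and 3.95 to 28.4 in high-dose cells, and a difference in NK cells was not detectable at this depth. Pim1 was at 415, 395 and 436 CPM. None of 6 members with enough UMIs was 2-fold higher or lower at the high dose, where 6.22% of genes were higher and 2.53% lower.

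In monocyte-like cells Socs1 was higher at the high dose, on few cells. For the spleen-labelled library Socs1 was at 7.94, 12.1 and 77.8 CPM (6, 11 and 46 UMIs), a log2 ratio of 3.29 (2.06 to 4.81), and it was the 1 of 7 members higher, where 4.63% of genes were higher and 2.80% lower. The 46 UMIs came from 11 of 40 cells and 16 of them from 1 cell. Cish went from 0 UMIs in 74 vehicle cells (3 counts would be 3.97 CPM) to 14 UMIs in 8 of the 40 high-dose cells (23.7 CPM). T cell markers were at 9.27, 5.51 and 15.2 CPM in these cells, and their part was not tested. In the liver-labelled library, with 27 high-dose cells, Socs1 was at 7.77, 4.84 and 16.8 CPM (27, 9 and 11 UMIs), a log2 ratio of 1.11 (-0.049 to 2.17), where 4.15% of genes were higher and 6.54% lower. T cell markers were at 103, 53.8 and 506 CPM there, so they were highest in the same group, and their part was not tested. Socs3 was at 84.3, 188 and 140.3 CPM (293, 349 and 92 UMIs), a log2 ratio of 1.16 (0.93 to 1.38) at the low dose, where 2.06% of genes were higher and 2.81% lower.

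In B cell-like cells of the liver-labelled library Socs3 and Stat4 were higher at the low dose. Socs3 was at 11.9, 117 and 20.0 CPM (25, 226 and 34 UMIs), a low-dose log2 ratio of 3.31 (2.71 to 3.96), and Stat4 at 13.3, 53.0 and 14.1 CPM (28, 102 and 24 UMIs), a log2 ratio of 1.99 (1.38 to 2.65). These were 2 of 8 members, where 1.75% of genes were higher and 2.21% lower. Much of it sat in cluster 17 (leading genes Pmepa1, Arap2 and Scd1), of whose 147 cells 143 were low-dose cells, with 299 CPM of Socs3 and 136 CPM of Stat4 over all groups. Cluster and group cannot be told apart there. In cluster 1, which every group filled, Socs3 went from 12.9 to 54.5 CPM (24 and 73 UMIs, log2 ratio 2.08, 1.40 to 2.81), where 1.41% of genes were higher and 1.85% lower, and Stat4 had a log2 ratio of 0.53 (-0.29 to 1.35). In cluster 9, Stat3 was higher at the low dose (2 and 23 UMIs, 2.15, 0.13 to 5.28), where 8.74% of genes were. Neutrophil markers summed to 1739.7, 3000.1 and 1685 CPM in the B cell-like cells, and their part was not tested. Cluster 20, of whose 56 cells 55 were vehicle cells, held 85.4 CPM of Socs1, 74.7 CPM of Socs2 and 469.6 CPM of Pim1. Across the spleen-labelled library, where 32, 37 and 68 B cell-like cells were found, Socs3 was at 82.9, 46.8 and 12.9 CPM on 9, 6 and 4 UMIs. Pim1 there was lower at the high dose (20 and 22 UMIs, -1.37, -2.32 to -0.43), where 6.65% of genes were higher and 6.25% lower.

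**Figure D5:**
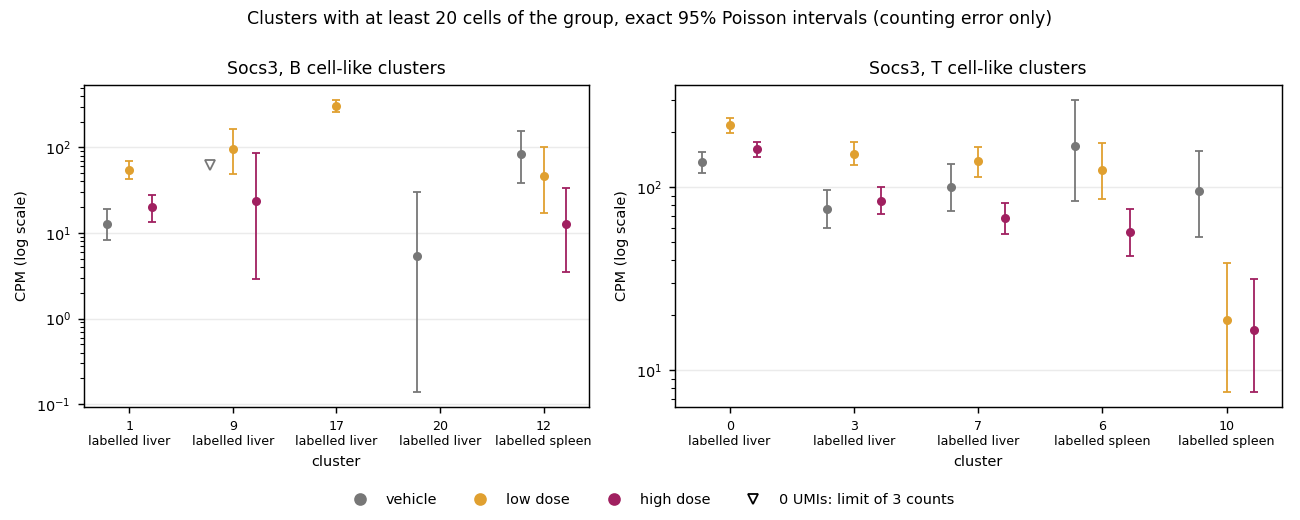
Socs3 in CPM (log scale) in B cell-like (left) and T cell-like clusters (right) with at least 20 cells of the group, by hashtag group, with exact 95% Poisson intervals and an open triangle for the limit of 3 counts at 0 UMIs. In clusters 1, 0, 3 and 7 of the liver-labelled library the low-dose point is the highest, for example 54.5 against 12.9 CPM in cluster 1, while in cluster 10 of the spleen-labelled library both dosed points lie below vehicle at 95.6 CPM.

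Stem and progenitor-like cells of the liver-labelled library held more of every inhibitor at the high dose. Cish was at 3.48, 4.56 and 14.3 CPM (4, 5 and 30 UMIs), Socs1 at 6.96, 9.13 and 16.7 CPM, Socs2 at 8.69, 8.21 and 27.2 CPM and Socs3 at 14.8, 47.5 and 43.9 CPM. With Stat4 (7 and 36 UMIs, log2 ratio 1.5, 0.31 to 2.91) these were 5 of 10 members at least 2-fold higher, where 5.70% of genes were higher, with log2 ratios of 2.04 (0.54 to 4.01), 1.26 (0.13 to 2.58), 1.65 (0.66 to 2.78) and 1.57 (0.81 to 2.41). The mean of each cell's CPM left 3 of these past 2-fold, with Cish at 0.98 and Socs1 at 0.58. The groups held 31, 29 and 57 cells. T cell markers summed to 9.56, 11.9 and 85.5 CPM and neutrophil markers to 1258, 1879 and 3114 CPM in them, both highest at the high dose, and their part was not tested. At the low dose Socs3 alone was 2-fold higher (1.68, 0.87 to 2.57), where 2.75% of genes were. In granulocyte progenitor-like cells Socs3 was at 13.4, 16.4 and 28.5 CPM (48, 52 and 52 UMIs), a high-dose log2 ratio of 1.09 (0.50 to 1.69), where 2.26% of genes were higher. Cish was at 1.39, 1.26 and 7.68 CPM there on 5, 4 and 14 UMIs.

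Dendritic cell-like and macrophage-like cells also held members below vehicle. Median UMIs over vehicle, low dose and high dose of the liver-labelled library were 2929.5, 5579 and 1978 in the former. They were 1621, 2928 and 866 in the latter. The first leading gene of the dendritic cell-like cluster was Hbb-bs, an erythroid marker, and 3 of 9 dendritic cell markers were raised in it. The part of depth and of erythroid RNA in the values below was not tested. In dendritic cell-like cells of the liver-labelled library Socs3 was lower at the high dose (23 and 7 UMIs, -1.27, -2.74 to -0.0047), where 14.0% of genes were lower. At the low dose Jak2 (1.22, 0.64 to 1.81), Socs2 (1.84, 0.91 to 2.85) and Stat5b (1.11, -0.31 to 2.60) were higher, 3 of 6 members, where 3.83% of genes were, and the 35 low-dose UMIs of Socs2 came from 5 cells. In macrophage-like cells of the liver-labelled library Stat3 was lower at the high dose (23 and 4 UMIs, -1.39, -3.39 to 0.16), where 8.50% of genes were, and Pim1 higher at the low dose (24 and 51 UMIs, 1.07, 0.34 to 1.84), where 6.03% were. In macrophage-like cells of the spleen-labelled library Socs1 was at 43.1, 32.8 and 20.8 CPM (33, 48 and 47 UMIs), a high-dose log2 ratio of -1.05 (-1.72 to -0.36), the 1 of 9 members lower where 2.03% of genes were.

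Summed over all assigned cells, the makeup of each group enters the value. The share of T cell-like cells was 18.9%, 26.5% and 47.2% of the vehicle, low-dose and high-dose groups in the liver-labelled library and 5.35%, 8.61% and 20.5% in the spleen-labelled library. Over all cells Cish was at 5.77, 6.08 and 19.3 CPM and at 7.99, 11.1 and 29.3 CPM, high-dose log2 ratios of 1.74 and 1.87, above the 0.48 and 1.37 of the T cell-like cells. Socs1 (1.29 and 1.01), Socs2 (1.66 and 1.49) and Stat4 (1.37 and 1.2) were higher in the same way. For Stat4, the log2 ratios in T cell-like cells were -0.020 and -0.60, on the other side of 0.

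Between the libraries, vehicle cells of the same class differed in Socs3 and Pim1. In neutrophil-like cells Socs3 was lower in the spleen-labelled library (log2 ratio -1.04) and Pim1 higher by less than 2-fold (0.78), where 11.7% of genes were higher and 9.08% lower. That class of the spleen-labelled library included cluster 11 (60 vehicle cells, led by Cebpe, Fcnb and Hmgn2), with immature neutrophil markers at 46936 CPM. Socs3 and Pim1 were lowest in this cluster. In the liver-labelled library, cells led by Elane, Prtn3 and Fcnb were named granulocyte progenitor-like instead. The part of this naming in both ratios was not tested. In monocyte-like cells Socs3 (1.45) and Pim1 (1.18) were both higher in the spleen-labelled library, where 3.80% of genes were higher and 12.4% lower. Stat3 (1.27) and Socs2 (2.12) were higher in its T cell-like cells, where 12.5% of genes were, and Socs3 (2.81), Socs1 (1.63) and Socs2 (2.19) in its B cell-like cells, where 11.5% were. Macrophage-like cells there held more Pim1 (1.37, 0.76 to 2.05), where 18.1% of genes were higher and 10.9% lower. Their Stat5b (-1.10, -2.28 to 0.14) was counted as lower on 17 and 11 UMIs in the spleen- and liver-labelled libraries, with an interval that included no difference. The granulocyte progenitor-like cells of the libraries were not alike, since immature neutrophil markers stood at 54344 CPM in cluster 11 of the liver-labelled library (led by Elane, Prtn3 and Fcnb) and at 364 CPM in cluster 7 of the spleen-labelled library (led by Ctsg, Mpo and Mcpt8). Between these, Cish (2.91) and Stat5a (3.79) were higher in the latter, where 47.5% of genes were. Kind of cell, tissue, library and depth cannot be told apart in these values.

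The wider pathway was followed with a list of 59 genes of receptors, other JAKs and STATs, further regulators, targets and ligands. In neutrophil-like cells of the liver-labelled library 42 of them had at least 20 UMIs over both groups, and 0 were higher and 6 lower at the high dose, where 1.06% of all genes were higher and 17.8% lower. The median log2 ratio of the list was -0.43 against -0.38 for all genes, so its shift was near that of the whole transcriptome. Of the lower genes with at least 100 UMIs, Junb, a transcription factor gene induced by STAT3, was at 1099.7 CPM in vehicle cells and had a log2 ratio of -1.47 (13171 and 1564 UMIs), and Ifnar1, a chain of the type I interferon receptor, one of -1.49 (264 and 31 UMIs). In the spleen-labelled library 36 were measured, with 1 higher and 2 lower (3.09% and 3.74% of all genes) and a median of -0.15, and Junb went from 1189 to 448 CPM (-1.41). The Junb and Ifnar1 values are of the whole class, whose makeup by cluster differed between the groups. The part of this makeup was not tested. In T cell-like cells 0 of 45 pathway genes were higher and 1 lower in the liver-labelled library, where 2.88% of all genes were higher and 0.961% lower. Of 41 in the spleen-labelled library, 12 were higher and 2 lower, where 12.1% of all genes were higher and 4.57% lower. At the low dose, 0 of 43 were higher and 2 lower in neutrophil-like cells of the liver-labelled library (0.744% and 2.79% of all genes), and 1 of 37 was higher and 0 lower in the spleen-labelled library (2.32% and 3.23% of all genes). Both low-dose counts lie near the shares of all genes.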

How the data were processed

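Per the file headers and the labels, the deposited matrices hold raw UMI counts per gene and barcode, which the authors made from 10x Genomics libraries against mm10. The matrix headers name Cell Ranger 5.0.0 and the submitters' processing notes 6.0.0, the study's methods name a later one, and which version made the counts was not settled. The authors filtered the barcodes, and every barcode kept had at least 500 UMIs. Columns of other samples numbered 0.

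Hashtag counts were demultiplexed with HTODemux (Seurat 5.3.0, quantile 0.99) in R 4.3.3. The study's methods used hashtags in Seurat and name neither function nor quantile. Of the barcodes, 616 and 215 in the liver- and spleen-labelled libraries held more than 1 hashtag and 540 and 1627 held none, and neither kind entered a comparison. Singlets were normalized with SCTransform (sctransform 0.4.2) and clustered per library on 30 principal components at resolution 0.8, with the 10 genes and the pathway list left out of the variable features. A cluster took the name of a marker list, with -like added, if 3 or more of its markers were raised. Raised meant a log2 fold of at least 1 over the median of the other clusters (10 CPM added), in at least 20% of cells. It also needed a marker of that list among its 10 leading genes, or 3 times the raised part of the next list. No other list could hold more of those 10, and shallow clusters with none stayed unnamed. These thresholds were set after the data had been seen. Clusters 16 and 19 of the liver-labelled library (174 and 72 cells) stayed unnamed and entered no class. Cluster 4 of the spleen-labelled library (196 cells, led by Ciita, H2-Aa and H2-Eb1) did so too. No filter on mitochondrial share was applied, and barcodes reached 98.9% and 99.0%. Doublets within a hashtag were kept. Scrublet (scanpy 1.11.5) marked 2.59% of barcodes in the liver-labelled library and 0.0207% in the spleen-labelled library, where it had not worked.

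UMIs were summed per class and group (at least 20 cells), with exact Poisson intervals, and ratios had exact conditional binomial intervals, for counting error only (scipy 1.17.1, Python 3.11.15). Where no UMI was counted, 3 counts served as the limit. The ratio calculation was tested on simulated data. Alternatives were MULTIseqDemux, a cell filter, other resolutions, all variable features, the mean of each cell's CPM, other scalings, doublet removal and other UMI minimums. The members and lists were chosen with earlier results of these data known. Named besides the members were pathway genes at least 2-fold apart between high dose and vehicle with at least 100 UMIs in neutrophil-like cells, up to 5 each way, and the 3 genes most alike each member, of which those for Socs2 are not reported here.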

Additional observations from a re-analysis of the deposited data

Results flagged for a closer look

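In the spleen-labelled library, 1627 barcodes carried no hashtag and so entered no comparison, with a median of 1803 UMIs. Socs2 was at 37.9 CPM in them (177 UMIs), a log2 ratio of 2.06 to all vehicle cells of that library. Cish was at 18.6 CPM (87 UMIs, log2 ratio 1.22) and Stat4 at 12.8 CPM (60 UMIs, log2 ratio 1.35). These 3 values stood out because they come from barcodes outside the comparisons and lie above the vehicle level. The barcodes hold an unknown mixture of groups and cell types, and the differences have no replicate.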

How the results depend on the processing

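No paired analysis was possible because each group was 1 pooled sample in each library and no result came from a test. Between high dose and vehicle in the neutrophil-like class, the 0 members at least 2-fold lower in the liver-labelled library became 6 with the mean of each cell's CPM (Socs1, Socs3, Stat3, Stat5a, Stat5b and Jak2) and 1 without a minimum of UMIs (Socs2). In the spleen-labelled library the 0 became 2 with the mean of each cell's CPM (Socs3 and Pim1). The 2 members higher there became 1 with the mean of each cell's CPM or a dominant hashtag (Cish both times), 1 with at least 50 UMIs (Socs1) and 3 without a minimum. Over the alternatives the log2 ratio of Cish lay between 1.52 and 2.44 and between 1.91 and 3.04 in the liver- and spleen-labelled libraries, that of Socs3 in the liver-labelled library between -1.53 and -0.59, and that of Socs1 in the spleen-labelled library between 0.64 and 1.78. The alternatives covered dose ratios of whole classes, not those within clusters, over all assigned cells or between libraries. Of the 29 class ratios past 2-fold in the main setting, 0 turned direction in the settings that gave a value. Ratios short of 2-fold were not counted in this, and some of them did turn, such as Socs1 in neutrophil-like cells of the liver-labelled library. Of the ratios past 2-fold, 9 of 29 fell short with the mean of each cell's CPM, 9 of 25 with a dominant hashtag, 4 of 25 at resolution 1.6 and 3 of 29 with MULTIseqDemux. Without cluster 11, 0 of 3 fell short in the neutrophil-like cells of the spleen-labelled library, Cish at the high dose among them. The dominant hashtag, the ratios without cluster 11 and the low-dose alternatives were chosen after the data had been seen. Why settings differed was not tested. Counts under about 20 UMIs, as for Socs2 in neutrophil-like and Socs3 in NK cell-like cells, limit what could be seen.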

Other observations

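Outside the leukocytes, the endothelial-like cells of the spleen-labelled library (35, 104 and 108 cells) held Socs2 at 53.7, 56.2 and 97.0 CPM, Socs3 at 226 CPM in vehicle and 238 CPM in high-dose cells, and Jak2 at 118, 169 and 131 CPM, with overlapping intervals between groups for each gene. Epithelial tumor-like cells were found in the high-dose group alone in numbers for a sum (49 cells), with Pim1 at 12.2 CPM (7.99 to 17.9), Stat3 at 66.3 CPM and Socs1 at 26.3 CPM. Hepatocyte-like cells held 0 UMIs of Socs1 in all 3 groups.

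Over the 17 sums of vehicle cells by class and library, the genes whose log2 levels ran most alike Socs3 were Gbp2b (Pearson r 0.85), Ndel1 (0.79) and Picalm (0.77). Those most alike Cish were Sigirr (0.89), Rasal3 (0.89) and Rnf125 (0.88), and for Socs1 they were Pde3b (0.93), Pced1b (0.92) and Inpp4b (0.91). Stat4 ran with Pglyrp2 (0.95), Txk (0.95) and Nlrc3 (0.94), Stat3 with Bcl2l11 (0.89), Bnip3l (0.83) and Srebf1 (0.82), Stat5a with Ctnnbl1 (0.91), Txlng (0.89) and Gtf3a (0.89), and Stat5b with Insr (0.86), Usp33 (0.86) and Smpd2 (0.85). Jak2 ran with Uba7 (0.91), Gxylt1 (0.90) and Hivep3 (0.89), and Pim1 with Tspo (0.84), Pstpip1 (0.83) and Dgkg (0.82). The sums share libraries and differ in depth, so these values describe likeness only.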
